A study of Mus musculus with 6 samples.

Results

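Caveolae are flask-shaped pits of the plasma membrane, built from caveolins, which insert into the membrane, and cavins, which coat them from the cytosol. Transverse tubules (T-tubules) are inward extensions of the surface membrane of a heart muscle cell, where calcium channels face the calcium release channels of the sarcoplasmic reticulum across a narrow cleft called the dyad. In the mouse the tubules form after birth, and the caveolar protein caveolin 3, the membrane-bending protein BIN1, the bridging junctophilins and the membrane repair protein dysferlin are all known from them. The 9 genes described here were chosen by name: the caveolins Cav1, Cav2 and Cav3, the cavins Ptrf (also called Cavin1) and Murc (Cavin4), the tubule gene Bin1, the junctophilins Jph1 and Jph2, and the dysferlin gene Dysf. All 9 were found among the 14495 genes of the count table, and all 9 passed the filter on low counts.

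The samples were ventricles of male C57BL/6 mice, for which the labels name no treatment or genetic change, at postnatal day 1 (P1) and day 14 (P14). Each age had 3 libraries of poly(A)-selected RNA and each library pooled 3 hearts, so 9 hearts stood behind an age and a single heart cannot be seen. The labels give the tissue both as ventricles with the septum and as left ventricle. The question put to these libraries is how RNA levels in the ventricle changed over the first weeks after birth. The labels do not say that the pools shared no litter or day, and p-values measure only the spread between these pools.

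Library totals ran from 5916557 to 17353933 counts, lowest in P1 replicate 3. P1 replicate 2 stood apart from the other P1 libraries by transcript base composition. Relative to their mean, its median log2 ratio was −0.62 over genes with more than 55% GC in the longest transcript and 0.41 over genes with at most 45%. Fold changes of P14 over P1 also followed GC content, with the opposite signs. Their median log2 fold change was 0.40 in the first of these groups and −0.25 in the second. P1 replicate 2 is among the P1 libraries of that comparison, so these trends are not separate observations. A second fit, chosen after the data were seen, removed from every library the part of its log2 values that followed GC content and length of the longest transcript. Its values are given beside some of the results, and results printed without them may also move. It also takes out any change between the ages that follows GC content. All 12 cardiomyocyte markers were measured, and their summed level was 67718 to 77640 CPM at P1 and 121105 to 152421 CPM at P14, where CPM is the count scaled to a common library size with TMM factors.

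At P14 the transcript of dysferlin was 3.40-fold higher, that of the muscle cavin Murc 2.12-fold higher and that of caveolin 1 2.18-fold lower than at P1. The junctophilin of the heart, Jph2, was 1.59-fold higher, a difference that was gone after the GC correction. The transcripts of Cav2, Cav3, Ptrf, Bin1 and Jph1 did not pass the test. A gene is said to have risen or fallen where edgeR gave a Benjamini-Hochberg adjusted p below 0.05, over 14301 genes. Of the 9 genes 3 rose, against 21.8% of all genes tested, and 1 fell, against 22.0%. The values of the ages did not overlap in 4 of the 9, against 54.8% of all genes. These shares are near the background of a comparison in which 43.8% of genes were called, so the number of changes is not a result about these genes, and their median log2 fold change of 0.09 lay near the −0.01 of all genes. Of all calls 49.7% were rises, and 22.5% with scaling by library totals only, which moved the median of all genes to −0.47. All directions are relative to the TMM scaling.

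**Figure D1:**
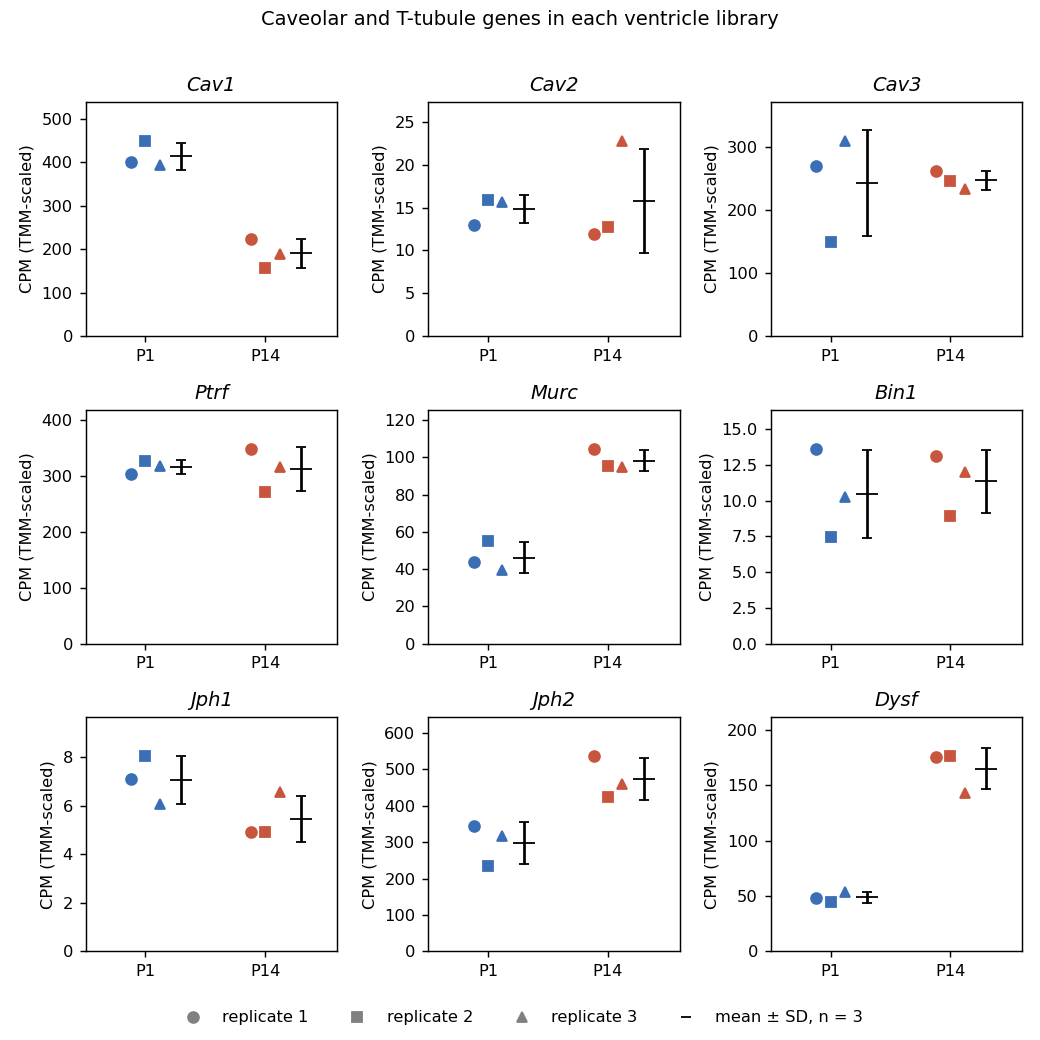
Level of each of the 9 genes in each library, in TMM-scaled CPM on a linear axis from 0, with P1 in blue, P14 in red, marker shape for the replicate number and a bar for the mean ± SD of 3 libraries. Cav1 is lower in all P14 libraries, Murc, Jph2 and Dysf are higher in all of them, and the other 5 genes overlap.

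The stretches of DNA just before 4 of the genes are shown because these are the 3 genes whose call held in every setting tried (Murc and Dysf, which rose, and Cav1, which fell) and the muscle caveolin Cav3. RefSeq promoter sequences (GRCm38.p6) were found for 7 of the 9 genes. Each line gives the 250 bases before an annotated transcription start, 5′ to 3′ on the gene's own strand, which is the plus strand in all 4. Capitals mark matches on either strand to the E-box (CANNTG), bound by basic helix-loop-helix factors, or to the TATA box (TATAAA). Cav1 and Dysf each have another annotated start, not shown. The windows are chr4:48663264-48663513 for Murc, chr6:84008348-84008597 for Dysf, chr6:17306085-17306334 for Cav1 and chr6:112459255-112459504 for Cav3.
Murc: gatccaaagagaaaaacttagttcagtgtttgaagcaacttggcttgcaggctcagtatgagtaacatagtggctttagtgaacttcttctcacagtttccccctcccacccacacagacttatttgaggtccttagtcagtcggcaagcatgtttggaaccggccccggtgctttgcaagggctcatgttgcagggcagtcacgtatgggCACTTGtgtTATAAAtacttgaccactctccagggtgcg
Dysf: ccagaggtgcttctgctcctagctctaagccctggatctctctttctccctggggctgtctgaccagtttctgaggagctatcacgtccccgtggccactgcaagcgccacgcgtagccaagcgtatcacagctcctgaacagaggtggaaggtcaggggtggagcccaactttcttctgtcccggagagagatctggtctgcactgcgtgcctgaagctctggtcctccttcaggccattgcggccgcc
Cav1: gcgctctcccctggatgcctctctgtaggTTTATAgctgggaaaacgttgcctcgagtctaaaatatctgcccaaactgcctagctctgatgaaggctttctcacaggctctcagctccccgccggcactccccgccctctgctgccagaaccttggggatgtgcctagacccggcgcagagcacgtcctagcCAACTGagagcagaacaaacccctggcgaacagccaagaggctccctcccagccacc
Cav3: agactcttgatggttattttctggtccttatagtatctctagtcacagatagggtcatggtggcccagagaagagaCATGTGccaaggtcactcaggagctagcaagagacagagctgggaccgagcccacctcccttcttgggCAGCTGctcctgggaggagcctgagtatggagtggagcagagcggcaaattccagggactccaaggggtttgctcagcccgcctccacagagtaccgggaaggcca

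The Murc window held a TATA box that begins at −30 from the start, with an E-box at −39 directly before it. The Cav3 window held 2 E-boxes and no TATAAA. The Cav1 window held 1 E-box, at −57, and a TATAAA match at −221, further upstream than a TATA box usually lies. The Dysf window held no match to either. Over all 32536 distinct RefSeq windows of this length, 12.3% held TATAAA and 66.2% an E-box. MEF2 sites and CArG boxes, known from muscle genes, were matched in 2.89% and 1.48% of these windows, and in 0 of the windows of the 7 genes. These are matches of letters, not tested sites. In the 4 windows Murc and Cav3 had 5 and 4 CpG dinucleotides and Dysf and Cav1 had 10 each, against a median of 6 over all windows. GC content was 48.8% for Murc and 59.6% for Cav1, against a median of 52.4%. DNA methylation itself was not analysed here.

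Cav1 encodes caveolin 1, the structural caveolin of endothelial cells, fibroblasts and fat cells. The gene (ENSMUSG00000007655; GRCm38 chromosome 6, 17306335 to 17341452) had 399.7, 449 and 392 CPM in P1 replicates 1 to 3 and 224, 157 and 189 CPM in P14 replicates 1 to 3. Every P14 library lay below every P1 library. The log2 fold change was −1.12 ± 0.20 (SE, n = 3 libraries per age; edgeR adjusted p = 0.000504). After correction for GC content and length it was −0.82 (edgeR adjusted p = 0.000527). RNA of whole ventricles cannot tell fewer cells of a type from less RNA per cell. Of 12 endothelial markers 7 rose, among them Egfl7 and Robo4, and the median log2 fold change of the 12 was 0.76. Over all genes tested 21.8% rose and 22.0% fell. The endothelial sum was 836 to 1002 CPM at P1 and 1213 to 1302 CPM at P14. The other 5 did not pass, among them Pecam1 and Cdh5, with 173 and 177 CPM at P1 and 143 and 134 CPM at P14. The number of endothelial markers that fell was 0 in edgeR's test, 0 at an unadjusted p below 0.05, and 0 with DESeq2 and with limma, but 1 without P1 replicate 2, without P14 replicate 1 and with the GC correction. By library totals alone 2 of them rose and 4 fell. Of 9 fibroblast markers 1 rose, and 0 fell in edgeR's test, 1 at an unadjusted p below 0.05 and 0 with DESeq2 and with limma. Without P1 replicate 2 these fibroblast numbers were 2 and 1, and without P1 replicate 1 the number that rose was 2. The part of cell types in the fall of Cav1 was not tested.

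Cav2 encodes caveolin 2, which forms mixed oligomers with caveolin 1, and lies 17219 bases before Cav1 on the same strand (ENSMUSG00000000058; chromosome 6, 17281185 to 17289115). It had 12.9, 15.9 and 15.7 CPM at P1 and 11.9, 12.8 and 22.8 CPM at P14, with counts from 93 to 279 per library. The ages overlapped, and P14 replicate 3 alone was high. The log2 fold change was 0.09 ± 0.27 (SE; edgeR adjusted p = 0.811), and it was −0.26 without that library. The Cav2 to Cav1 ratio per kilobase was 0.0334, 0.0367 and 0.0414 at P1 and 0.0551, 0.0843 and 0.125 at P14. This ratio was 2.25-fold higher at P14 and did not overlap between the ages (exact permutation test, two-sided, p = 0.1, the smallest that 3 against 3 libraries allow, and 0.1 adjusted over the 5 ratios tested). With libraries paired by replicate number, the exact two-sided p of each of the 5 ratios was 0.25, the smallest that 3 pairs allow. Both transcripts are poor in GC (37.5% and 42.6%), and with the GC correction the log2 difference was 1.18 against 1.17 without it.

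Cav3 encodes caveolin 3, the muscle form, found in caveolae of cardiomyocytes and in forming tubules (ENSMUSG00000062694; chromosome 6, 112459505 to 112472872). It had 269, 148 and 309 CPM at P1 and 262, 245 and 233 CPM at P14. P1 replicate 2 was low, at 0.514 of the mean of the other P1 libraries, and the other 5 libraries lay between 233 and 309 CPM. Between the ages the log2 fold change was 0.03 ± 0.25 (SE; edgeR adjusted p = 0.938). It was −0.23 without P1 replicate 2 (edgeR adjusted p = 0.264), −0.32 with the GC correction (0.106), and −0.41 with both (0.0336), the only setting in which Cav3 passed. The Cav3 transcript has 56.6% GC. P1 replicate 2 was also the lowest P1 library for Jph2, Dysf and Bin1 (61.8%, 55.5% and 55.3% GC), at 0.709, 0.868 and 0.639 of the others. It was the highest for Cav1, Cav2, Murc and Jph1 (37.5% to 47.8% GC), at 1.11 to 1.32. Ptrf, at 57.3% GC, was not low there, at 1.06 of the other P1 libraries. The part of GC content in the low Cav3 value was not tested.

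Per kilobase of annotated exon, Cav3 was the most abundant caveolin at P14 and Cav2 the least in every library. Cav3 made up 65.9%, 48.7% and 69.3% of the caveolin transcripts at P1 and 76.8%, 81.1% and 76.5% at P14, while Cav1 made up 33.0%, 49.5% and 29.5% and then 22.0%, 17.5% and 20.9%. The P1 library with nearly equal shares is replicate 2. The Cav3 to Cav1 ratio did not overlap between the ages and was 2.34-fold higher at P14 (exact permutation p = 0.1, adjusted 0.1). Its log2 difference fell from 1.23 to 0.51 with the GC correction, so its size depends on that setting while its direction does not.

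**Figure D2:**
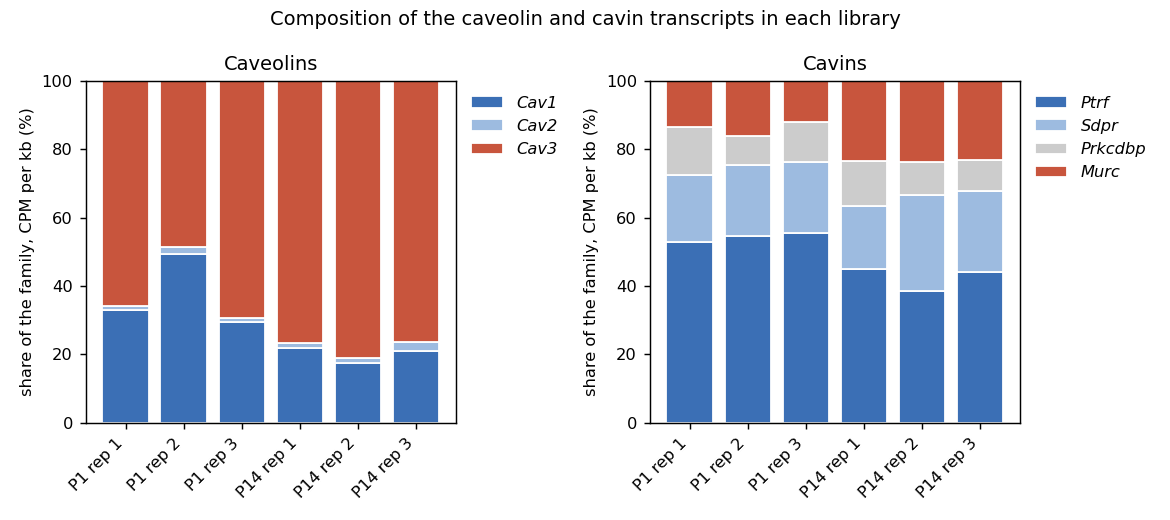
Share of each gene in the summed CPM per kilobase of its family, in each library, for the 3 caveolins and the 4 cavins. The Cav3 share is 48.7% to 69.3% at P1 and 76.5% to 81.1% at P14, and the Murc share 12.1% to 16.1% and 23.1% to 23.6%.

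Ptrf encodes cavin 1, without which caveolae do not form in any tissue (ENSMUSG00000004044; chromosome 11, 100956733 to 100970887). It had 303, 327 and 317 CPM at P1 and 349, 271 and 317 CPM at P14. The P1 values lay within the range of the P14 values, and the log2 fold change was −0.02 ± 0.19 (SE; edgeR adjusted p = 0.957). With the GC correction it was −0.45 (edgeR adjusted p = 0.056).

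Murc encodes cavin 4, the cavin of striated muscle, which binds caveolin 3 and other cavins (ENSMUSG00000028348; chromosome 4, 48663514 to 48673502). It had 44.0, 55.2 and 39.4 CPM at P1 and 105, 95.1 and 94.8 CPM at P14. Every P14 library lay well above every P1 library. Murc rose by a log2 fold of 1.08 ± 0.20 (SE; edgeR adjusted p = 0.000507), and 1.30 with the GC correction. With library totals alone it was 0.61 and still passed. The Murc to Ptrf ratio per kilobase was 0.254, 0.294 and 0.217 at P1 and 0.524, 0.612 and 0.523 at P14, a 2.18-fold rise of the ratio without overlap (exact permutation p = 0.1, adjusted 0.1), and its log2 difference was 1.12, or 1.76 with the GC correction. Of 12 cardiomyocyte markers 7 rose, against 21.8% of all genes tested, and 5 did not pass. The number that rose was 4 without P1 replicate 3 or without P14 replicate 2. Of these markers 0 fell in edgeR's test, at an unadjusted p below 0.05, and with DESeq2 and limma. Without P1 replicate 2 and with the GC correction 1 of them fell. Their part in the rise of Murc was not tested.

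Of 12 paralogs listed for the 9 genes 5 were measured: 1 rose, and 0 fell in edgeR's test, at an unadjusted p below 0.05, and with DESeq2 and limma. Over all genes 21.8% rose and 22.0% fell. Sdpr (cavin 2), abundant in endothelium, rose from 101 ± 5.55 to 145 ± 22.0 CPM (SD, n = 3; edgeR adjusted p = 0.0385), a small rise whose call ended without P1 replicate 1 or 3 or P14 replicate 2 or 3, and with upper quartile or total scaling. Prkcdbp (cavin 3) had 30.7 ± 7.12 and 36.3 ± 9.27 CPM (edgeR adjusted p = 0.422). Of the summed cavin transcripts per kilobase, Murc held 13.4%, 16.1% and 12.1% at P1 and 23.5%, 23.6% and 23.1% at P14. Ptrf held 52.8%, 54.6% and 55.7% and then 44.9%, 38.6% and 44.3%, so the largest cavin share stayed with Ptrf in every library.

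Bin1 encodes a protein that bends membrane into tubules and brings calcium channels to them (ENSMUSG00000024381; chromosome 18, 32377230 to 32435737). It had 13.7, 7.46 and 10.3 CPM at P1 and 13.2, 8.90 and 11.98 CPM at P14. The ages overlapped, replicate 2 was lowest at each age, and counts were 61 to 295 per library. For Bin1 the log2 fold change came to 0.12 ± 0.27 (SE; edgeR adjusted p = 0.749), which turned to −0.09 without P1 replicate 2 and to −0.12 with the GC correction. BIN1 has a muscle form made by splicing, and counts per gene do not separate forms. Its exons share 256 bases with the opposite-strand A830052D11Rik. Of its paralogs Bin3 was measured, at 16.5 ± 1.79 and 11.6 ± 4.19 CPM (SD, n = 3; edgeR adjusted p = 0.148). Bin3 passed as fallen without P14 replicate 1 (−0.84; edgeR adjusted p = 0.0201), with library totals alone (0.00624) with the replicate block and GC correction together (0.0321), and without P1 replicate 2 with the GC correction (0.0481).

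Jph2 encodes junctophilin 2, which anchors the sarcoplasmic reticulum to the tubule membrane and sets the width of the dyad in heart (ENSMUSG00000017817; chromosome 2, 163336242 to 163397993). It had 344, 234 and 316 CPM at P1 and 536, 425 and 461 CPM at P14. The ages did not overlap, and P1 replicate 2 was the lowest library. Jph2 rose by a log2 fold of 0.67 ± 0.21 (SE; edgeR adjusted p = 0.0186). The call ended without P14 replicate 1 (0.58; edgeR adjusted p = 0.0618), with library totals alone (0.22; 0.479) and with the GC correction (0.00075; 0.997). At 61.8% the Jph2 transcript has the highest GC content of the 9. Without P1 replicate 2 and with the GC correction its log2 fold change was 0.13 (edgeR adjusted p = 0.514).

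Jph1 encodes junctophilin 1, the main junctophilin of skeletal muscle (ENSMUSG00000042686; chromosome 1, 16964560 to 17097889). It had 7.12, 8.05 and 6.06 CPM at P1 and 4.93, 4.91 and 6.57 CPM at P14, from 36 to 154 counts per library. The ages overlapped through P14 replicate 3, and the log2 fold change was −0.39 ± 0.27 (SE; edgeR adjusted p = 0.253). It passed with library totals alone (−0.87; edgeR adjusted p = 0.0229). Skeletal muscle markers were near the lower limit, with a sum of 2.19 to 7.73 CPM over the 3 of 9 that were measured.

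Among the junctophilins Jph2 held 97.2% to 98.4% of the transcripts per kilobase at P1 and 98.8% to 99.2% at P14. The Jph2 to Jph1 ratio was 56.6, 34.0 and 60.4 at P1 and 127, 100.2 and 81.6 at P14. It was 2.07-fold higher at P14 without overlap (exact permutation p = 0.1, adjusted 0.1), and its log2 difference fell from 1.05 to 0.17 with the GC correction.

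Dysf encodes dysferlin, a ferlin with several C2 domains that takes part in resealing of the muscle membrane and is found at T-tubules (ENSMUSG00000033788; chromosome 6, 84008590 to 84211060). It had 47.9, 44.2 and 54.1 CPM at P1 and 176, 177 and 144 CPM at P14. The lowest P14 library was far above the highest P1 library. Dysf rose by a log2 fold of 1.77 ± 0.20 (SE; edgeR adjusted p = 8.09e-06), the largest of the 9 genes in either direction, and 1.39 with the GC correction. Exons of Dysf share 352 bases with Gm15475, an antisense gene, and it is not known here if reads were counted by strand. Gm15475 had 2 to 20 counts per library, against 321 to 2496 for Dysf.

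The related ferlin Myof (myoferlin), known from myoblast fusion, had 4.86, 10.1 and 5.56 CPM at P1 and 6.76, 7.83 and 6.57 CPM at P14 and did not pass (edgeR adjusted p = 0.949). P1 replicate 2 was the highest Myof library. Fer1l5 was near the lower limit, at 1.80 ± 0.41 and 2.30 ± 0.84 CPM (SD, n = 3; edgeR adjusted p = 0.519). The Dysf to Myof ratio per kilobase was 14.9, 6.62 and 14.5 at P1 and 39.2, 33.8 and 32.8 at P14. It was 3.12-fold higher at P14 without overlap (exact permutation p = 0.1, adjusted 0.1), with a log2 difference of 1.64, or 1.26 with the GC correction.

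**Figure D3:**
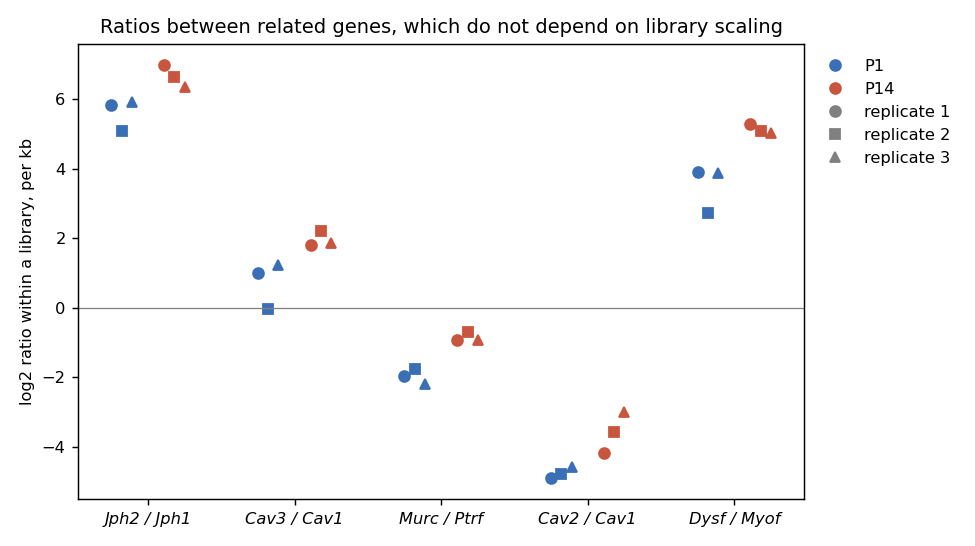
Log2 ratio of 5 pairs of related genes within each library, per kilobase of annotated exon, with P1 in blue and P14 in red. All 5 ratios are higher in every P14 library than in any P1 library, and the P1 replicate 2 library (square) is lowest for Jph2 over Jph1, Cav3 over Cav1 and Dysf over Myof.

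Levels of different genes are comparable only per length. In CPM per kilobase of annotated exon, the order of means at P1 was Cav3 (209), Cav1 (120.1), Ptrf (88.0), Jph2 (70.0), Murc (22.5), Dysf (5.85), Cav2 (4.45), Bin1 (2.54) and Jph1 (1.42). The Cav3 and Cav1 ranges overlapped at P1, and all other neighbours in this order were apart. At P14 the order was Cav3 (213), Jph2 (111), Ptrf (87.1), Cav1 (55.1), Murc (47.8), Dysf (19.8), Cav2 (4.74), Bin1 (2.75) and Jph1 (1.09), with overlap between Cav1 and Murc alone. Cav1 moved from the second to the fourth place and Jph2 from the fourth to the second, while the last 5 places were the same at both ages. With the length of the longest coding transcript in place of all exons the order was the same at both ages, with Bin1 at 4.35 and 4.71 CPM per kilobase.

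The genes most like 4 of these in pattern were sought among 8438 other genes with a mean of at least 10 CPM, as the smallest root mean square difference of log2 CPM profiles over the 6 libraries after centring each gene on its own mean. For Cav1 they were Myst2 (0.03), Parva (0.04) and Pgrmc2 (0.05), each of which fell about as much. For Dysf they were Mlycd (0.07), Kcnj8 (0.08) and Acaa2 (0.09), of which Mlycd and Acaa2 encode enzymes of fatty acid metabolism, with log2 fold changes of 1.88 each. For Jph2 they were Kcnj12 (0.04), Gpsm1 (0.05) and Plod1 (0.06), and for Cav3 they included Ntmt1 (0.07) and Sin3b (0.08). Ntmt1 and Sin3b both had their lowest value in P1 replicate 2, as Cav3 did. These distances describe the 6 libraries and carry no test.

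Of 12 genes of caveola assembly 5 rose and 7 did not pass, against 21.8% risen and 22.0% fallen among all genes. The 12 include the paralogs Sdpr, which is among those that rose, and Prkcdbp, both given above. Other lists overlap too, so their counts are not separate. Dnm2 is in this list and the T-tubule list, and Ryr2, Pln and Actn2 are also cardiomyocyte markers. Of the 12, 0 fell in edgeR's test, at an unadjusted p below 0.05, and with DESeq2 and limma. Their median log2 fold change was 0.38. By library totals alone 2 of them rose and 1 fell, and with the GC correction 1 fell. Pacsin3, a membrane-curving protein of striated muscle, rose from 31.1 ± 14.5 to 109 ± 2.42 CPM and the membrane ATPase Ehd1 from 104 ± 40.0 to 239 ± 42.5 CPM (SD, n = 3). Flot1, which encodes the raft protein flotillin 1, rose with a log2 fold change of 0.88, or 0.44 with the GC correction (edgeR adjusted p = 0.0247). The Flot1 call ended without P14 replicate 2 (edgeR adjusted p = 0.0553), with library totals alone (0.152) and without P1 replicate 2 with the GC correction (0.0649). Nos3, the endothelial nitric oxide synthase that caveolin 1 binds, rose with 0.66. Its call ended without P1 replicate 2 or 3, without P14 replicate 2 or 3, and with library totals alone (0.20, edgeR adjusted p = 0.542). The Nos3 call also ended with the GC correction (0.22, edgeR adjusted p = 0.231). The number that rose was 2 without P14 replicate 2, and 3 without P1 replicate 3 or P14 replicate 3.

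Of 18 genes listed for the dyad 11 rose, 1 fell and 6 did not pass, against 21.8% risen and 22.0% fallen among all genes. Their median log2 fold change was 0.69 beside −0.01 over all genes. The list is wider than the dyad itself. It holds Atp2a2 and Pln, genes of calcium uptake into the reticulum, which are among those that rose (log2 fold changes of 1.22 and 0.635). Trdn (triadin), which links the release channel to calsequestrin, rose from 65.3 ± 18.2 to 286 ± 16.0 CPM, Hrc, a calcium-binding protein of the reticulum, had a log2 fold change of 3.10, and Cmya5 and Speg, both tied to the organisation of the dyad, had 1.82 and 1.52. The GC correction lowered the Speg value to 0.55 (edgeR adjusted p = 0.0103). Sri (sorcin), which dampens calcium release, fell from 115 ± 12.01 to 70.0 ± 13.3 CPM (SD, n = 3). With the replicate number as a block 3 dyad genes fell. By library totals alone 7 dyad genes rose and 4 fell. Leaving out P14 replicate 2 left 7 that rose and 0 that fell, and leaving out P1 replicate 2 gave 2 that fell. Leaving out P1 replicate 1, P1 replicate 3 or P14 replicate 3 each left 8 that rose. The fall of Sri ended without P14 replicate 2 or 3.

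Of 17 genes that shape the tubule or anchor it to the sarcomere 9 rose, 1 fell and 7 did not pass, beside the same 21.8% and 22.0% over all genes, with a median log2 fold change of 0.94. By library totals alone 4 of them rose and 4 fell. Tcap, a Z-disc protein tied to the tubule network, rose from 77.9 ± 37.7 to 1073 ± 80.1 CPM (SD, n = 3). Its log2 fold change was 3.79, or 3.235 with the GC correction. Nexn, a Z-disc actin-binding protein, rose from 203 ± 82.4 to 467 ± 42.7 CPM. The lipid phosphatase gene Mtmr2 fell with −0.97. There were 2 that fell when P1 replicate 2 was left out.

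The partners of dysferlin in membrane repair were mixed. Of 15 such genes 3 rose, 4 fell and 8 did not pass, beside 21.8% and 22.0% over all genes, and their median was −0.14 on the log2 scale. By library totals alone 8 of them fell. Trim72, a muscle protein that starts the repair patch and binds dysferlin and caveolin 3, had 9.35, 15.6 and 14.5 CPM at P1 and 236, 218 and 231 CPM at P14, a log2 fold change of 4.13, or 3.50 with the GC correction, and Syt7 had 2.08. The annexins Anxa2 and Anxa5, found in many cell types, fell from 518.5 ± 70.7 to 259 ± 72.8 CPM and from 222 ± 5.67 to 107 ± 21.3 CPM (SD, n = 3). The number that fell was 2 without P14 replicate 2 or P14 replicate 3.

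**Figure D4:**
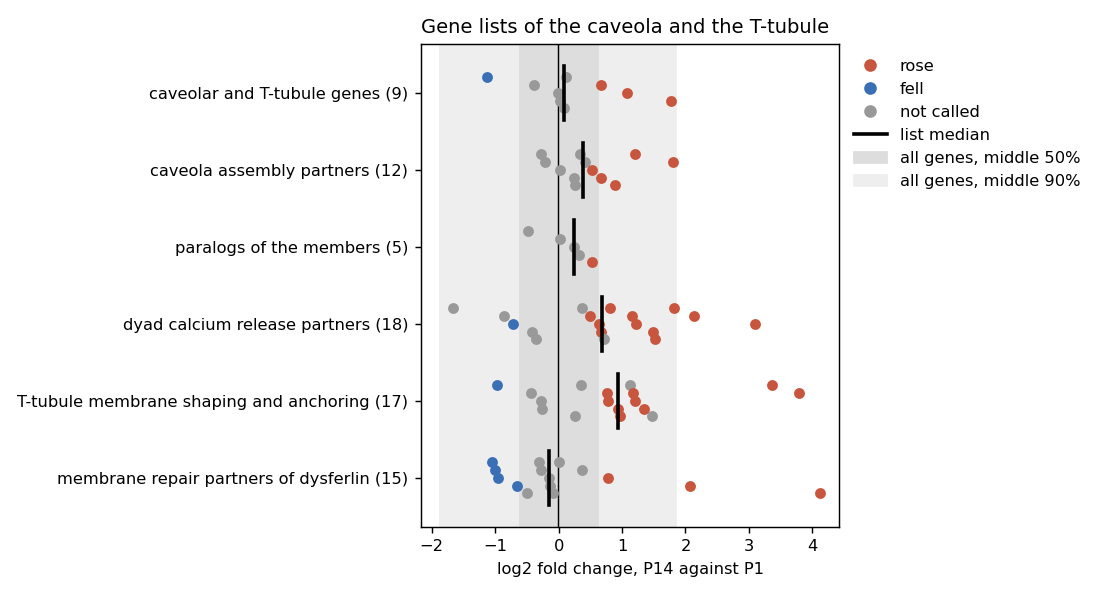
Log2 fold change of each measured gene of the 6 lists, with risen genes in red, fallen genes in blue, others in grey and a black bar for the list median. Grey bands hold the middle 50% and 90% of all 14301 genes (−0.61 to 0.62 and −1.87 to 1.85), and the medians of the dyad and T-tubule lists lie at 0.69 and 0.94.

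**Figure D5:**
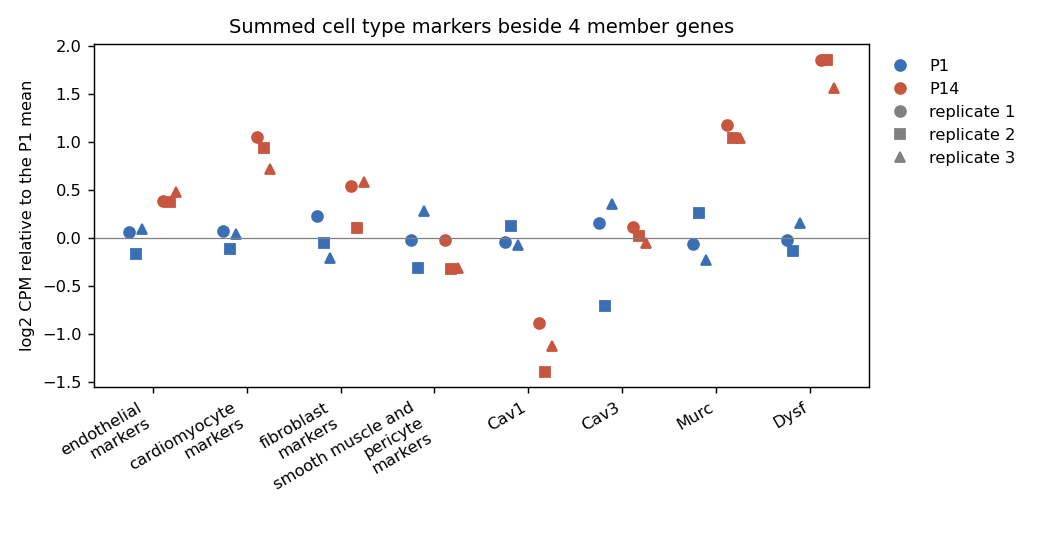
Summed CPM of 4 marker lists and CPM of 4 of the 9 genes in each library, as log2 of the value over the P1 mean, with P1 in blue and P14 in red. Cav1 is lower in every P14 library, while the endothelial and cardiomyocyte sums are higher in every P14 library than in any P1 library.

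The marker plot sets 4 of the 9 genes beside 4 marker lists. Smooth muscle and pericyte markers summed to 1764 to 2670.4 CPM at P1 and 1762 to 2168 CPM at P14, and fibroblast markers to 1470.1 to 1985 CPM and 1829 to 2548 CPM, with overlap in both. Of 8 smooth muscle and pericyte markers 5 rose and 2 fell, and the number that fell was 1 when P1 replicate 3 or either of P14 replicates 2 and 3 was left out. Their sum follows mainly Acta2, which had 1880 CPM at P1 and 1129 CPM at P14 and fell. Rgs5, the next in level, rose from 109 to 420 CPM. Outside the plot, macrophage markers rose in 6 of 8 and red cell markers in 5 of 6, and 2 of 4 atrial markers fell. These counts stand beside 21.8% risen and 22.0% fallen over all genes. The 6 fat cell markers were not analysed here. Murc, Dysf and the cardiomyocyte sum were each higher at P14, while Cav3, the muscle caveolin, did not pass. The sum was uneven across its markers. Mb had 3509 CPM at P1 and 24124 CPM at P14, and Actc1 had 19503 and 17736 CPM and was not called. The part of cell types in these values was not tested.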

How the data were processed

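The authors deposited whole-number read counts per gene for 6 libraries (unit: counts). Per the labels, poly(A)-selected RNA was sequenced for 36 cycles. The submitters' processing notes name GRCm38 (mm10), bedtools and edgeR 3.2.4 without saying what each was for. No source used here names the aligner, the counter, strand use or gene models. The smallest gene total in the table is 60. All 6 columns were tied to samples by age and replicate number.

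From the counts, edgeR 4.0.16 (R 4.3.3) fitted age alone over all genes: filterByExpr at a minimum count of 10 (14301 genes kept, 194 removed), scaling by the trimmed mean of M-values (TMM), robust quasi-likelihood F-test, two-sided, Benjamini-Hochberg adjustment. The fit was also run on simulated counts with a fixed dispersion and no GC trend, which does not test the GC and scaling shifts described here. The standard error of a log2 fold change was its size divided by the root of its F value. Per-kilobase values divide by the union of exons in GENCODE M21, which holds 14316 of the gene identifiers. Ratios within a library add 0.5 to each count. Replicates are separate pools of 3 hearts. The 36-base windows of the 9 genes were 94.7% to 100% unique among annotated transcripts on either strand.

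The genes, lists and tests were chosen with earlier results of these data known. All 9 genes are named, and from each list up to 4 called genes of at least 10 CPM with the largest change, 1 more against the list's direction, every measured paralog, and the 3 genes nearest in pattern to 4 of the 9; some genes that this rule names are not reported here. Egfl7, Robo4, Pecam1, Cdh5, Gm15475, Atp2a2, Pln, Acta2 and Rgs5 were chosen after their values were seen. Alternatives were other scalings, filters, DESeq2 1.42.0, limma 3.58.1 (voom), the replicate block and leaving out each library. Corrections for GC content and length (splines with 4 degrees of freedom each) and the longest coding transcript were added after the data were seen. Deviations from the age means correlated at 0.295, 0.112 and 0.102 between libraries of the same replicate number. Between libraries of unlike number they correlated at −0.214 to 0.09. By a threshold of 0.1 the numbers passed as pairs, but 2 of these values lie close to the highest of the unlike pairs. The printed tests are without the block, and values with it are given for only some of the counts that it changed. With the block, 2 fibroblast markers rose and 1 fell. Other counts also moved with the block and are not all given.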

Additional observations from a re-analysis of the deposited data

How the results depend on the processing

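The calls of Cav1, Murc and Dysf held in all alternatives run, while the call of Jph2 did not. With library totals alone 1620 genes rose and 5592 fell, and 2 of the 9 genes fell (Cav1 and Jph1). In that setting 2 caveola genes rose and 1 fell, 0 paralogs rose and 1 fell, 7 dyad genes rose and 4 fell, 4 T-tubule genes rose and 4 fell, and 8 repair genes fell. Upper quartile scaling left 0 paralogs risen. The replicate block gave 3 fallen dyad genes and 11 risen T-tubule genes, and changed no call of the 9 genes. With the GC correction 1 caveola, 3 dyad and 2 T-tubule genes fell. With the block and the GC correction 1 caveola gene, 1 paralog, 3 dyad and 3 T-tubule genes fell. Without P1 replicate 2 and with the GC correction 2 of the 9 (Cav1 and Cav3), 1 caveola gene, 1 paralog, 2 dyad and 3 T-tubule genes fell. The log2 difference between the ages with the GC correction, and with the block added, was 0.17 and 0.18 for Jph2 over Jph1, 0.51 and 0.53 for Cav3 over Cav1, and 1.76 and 1.73 for Murc over Ptrf. The sign of the log2 fold change turned with library totals alone for Cav2 (−0.38), Cav3 (−0.40), Bin1 (−0.34), Prkcdbp (−0.20), Myof (−0.46), Fer1l5 (−0.15) and Ntmt1 (−0.34). With upper quartile scaling, it turned for Cav3 (−0.032) and Myof (−0.043). With the GC correction, it turned for Cav3 (−0.32), Bin1 (−0.12), Prkcdbp (−0.12) and Ntmt1 (−0.42). With the replicate block and the GC correction, it turned for Cav3 (−0.30), Bin1 (−0.13), Jph2 (−0.004), Prkcdbp (−0.12) and Ntmt1 (−0.41). Without P1 replicate 2 and with the GC correction, it turned for Cav3 (−0.41), Bin1 (−0.20), Prkcdbp (−0.10) and Ntmt1 (−0.49). With limma, it turned for Sin3b (0.00013). Leaving out 1 library at a time turned the sign of genes that were not called, with ranges of −0.26 to 0.27 for Cav2, −0.23 to 0.26 for Cav3, −0.10 to 0.079 for Ptrf, −0.092 to 0.38 for Bin1, −0.20 to 0.45 for Myof, −0.19 to 0.32 for Ntmt1 and −0.27 to 0.15 for Sin3b. In the same settings the counts were 2 to 5 caveola genes risen, 0 to 1 paralogs risen, 0 to 1 paralogs fallen, 7 to 11 dyad genes risen, 0 to 2 dyad genes fallen, 1 to 2 T-tubule genes fallen and 2 to 4 repair genes fallen. Jph1, Bin1, Myof and Fer1l5 had 8 to 295 counts in a library, and this depth limits what can be seen. The cause of these shifts was not tested.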
